A study of Mus musculus with 4 samples.

Results

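A group of 10 genes of cardiac calcium handling was followed through ATAC-seq peak lists of fibroblasts at day 1 of reprogramming towards heart cells: Cacna1c, Cacnb2, Ryr2, Casq2, Trdn, Jph2, Atp2a2, Pln, Sln and Slc8a1. They are 10 of the 21883 protein-coding genes on chromosomes 1 to 19, X and Y, and were taken by name. Every peak that overlapped the body of such a gene (RefSeq, mm10) or the 50 kb on either side was kept, and overlapping peaks of different libraries (by 1 bp or more) were joined into one region. This gave 161 regions of 90239 in the genome.

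ATAC-seq reads out where the Tn5 transposase can cut DNA, that is, where chromatin is open. The cells were the mouse embryonic fibroblast line iMGT-Myh6-eGFP-MEF, in which doxycycline (1 μg/mL) induces 3 transcription factors of heart development, Mef2c, Gata4 and Tbx5. By its name the line also holds eGFP under control of Myh6, a cardiac myosin gene. The cells were transfected with siControl (2 libraries) or siChst7 (2 libraries) 1 day before induction, and were harvested 1 day after it and frozen before the assay. All 4 libraries carry the inducible factors and were induced, so there is no uninduced fibroblast and no heart cell to compare with. Chst7 encodes a sulfotransferase of chondroitin sulfate synthesis. The replicates are labelled biological, without saying whether they were separate cultures, and knockdown of Chst7 was not measured here. In bulk chromatin, fewer cells with an open region and less opening in each cell cannot be told apart.

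In heart muscle, the L-type calcium channel (pore subunit Cacna1c, auxiliary subunit Cacnb2) lets calcium in with each action potential. That calcium opens the ryanodine receptor Ryr2 of the sarcoplasmic reticulum, where Casq2 buffers stored calcium, Trdn links Casq2 to Ryr2, and Jph2 holds the reticulum against the T-tubule. For relaxation the pump Atp2a2 (SERCA2) takes calcium back under the restraint of Pln and Sln, and the exchanger Slc8a1 carries it out of the cell.

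The lists held 73902 and 75696 peaks with siControl (replicates 1 and 2) and 74402 and 66165 with siChst7. The background density of reads, recovered from the lists and set to 1 in siControl replicate 1, was 0.963 in siControl replicate 2 and 1.02 and 0.757 with siChst7, so siChst7 replicate 2 was the shallowest. As a check of cell identity, 10 of 15 fibroblast markers were called in all 4 libraries at 1 or both ends of the gene (within 1 kb), against 6 of 14 cardiomyocyte markers, 4 of 5 smooth muscle, 3 of 7 skeletal muscle, 2 of 4 neural, 1 of 4 immune and 0 of 5 endothelial markers. Nkx2-5, Hand2, Tbx20, Tnni3, Mybpc3, Actc1, Actn2 and Myl7 were the cardiomyocyte markers without one, and Col3a1, Dcn, Lum, Pdgfra and Prrx1 the fibroblast markers without one. Of all protein-coding genes 54.4% were called so.

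The 10 genes differed widely in the number of regions in their bodies and flanks. Cacna1c had 54 regions, Jph2 23, Casq2 22, Atp2a2 20, Cacnb2 12, Ryr2 8, Pln 8, Sln 8 and Trdn 6, and Slc8a1 had 0. Per 100 kb of gene and flanks, Jph2 (14.2), Casq2 (13.7) and Atp2a2 (13.4) stood above the 92nd percentile of protein-coding genes. Sln (7.72), Cacna1c (7.60) and Pln (7.39) lay near the median of 6.32, and Cacnb2 (2.47), Ryr2 (1.22), Trdn (1.22) and Slc8a1 (0) lay below the lower quartile of 2.63. Cacna1c (610 kb) and Ryr2 (554 kb) are of like length, and held 54 and 8 regions. In gene bodies alone, Jph2 held 14.6 and Casq2 13.3 regions per 100 kb, above the upper quartile of all genes (12.8). Atp2a2 held 8.21 in its body, between the median of all genes (6.23) and that quartile.

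**Figure D1:**
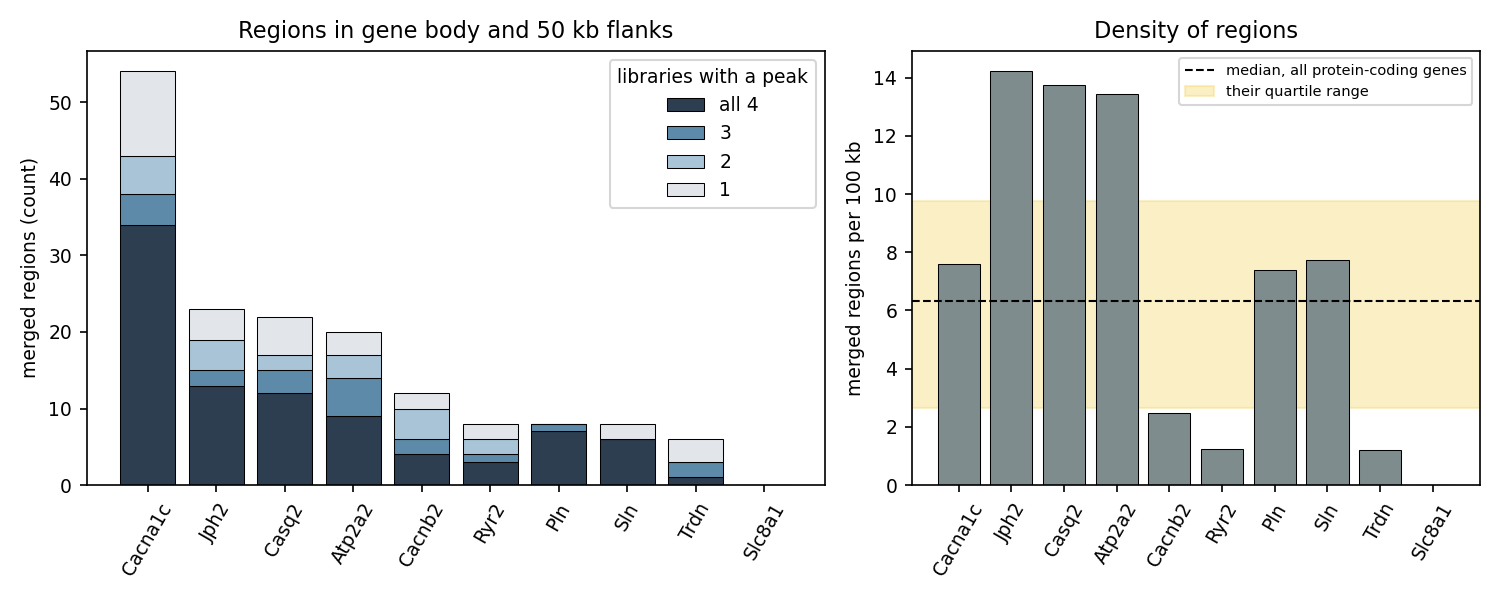
Left, merged regions (count) in the body and 50 kb flanks of each gene, split by the number of libraries with a peak. Right, the same regions per 100 kb, with the median (dashed) and quartile range (shaded) of all 21883 protein-coding genes. Cacna1c holds the most regions, Jph2 the most per 100 kb, and Slc8a1 none.

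Of the 161 regions, 89 (55.3%) were called in all 4 libraries, against 62.0% of all regions of the genome. A further 20 were called in 3 libraries, 20 in 2 and 32 in 1. Regions called in all 4 had a median width of 660 bp, and those called in 1 library a median of 243.5 bp. The gene bodies held 94 of the regions and the flanks 67, and 10 regions lay within 1 kb of an end of another protein-coding gene. The share called in all 4 was 7 of 8 at Pln, 6 of 8 at Sln, 34 of 54 at Cacna1c, 13 of 23 at Jph2, 12 of 22 at Casq2, 9 of 20 at Atp2a2, 3 of 8 at Ryr2, 4 of 12 at Cacnb2 and 1 of 6 at Trdn. Without Cacna1c, which gave 33.5% of the regions, 55 of 107 were called in all 4 (51.4%).

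**Figure D2:**
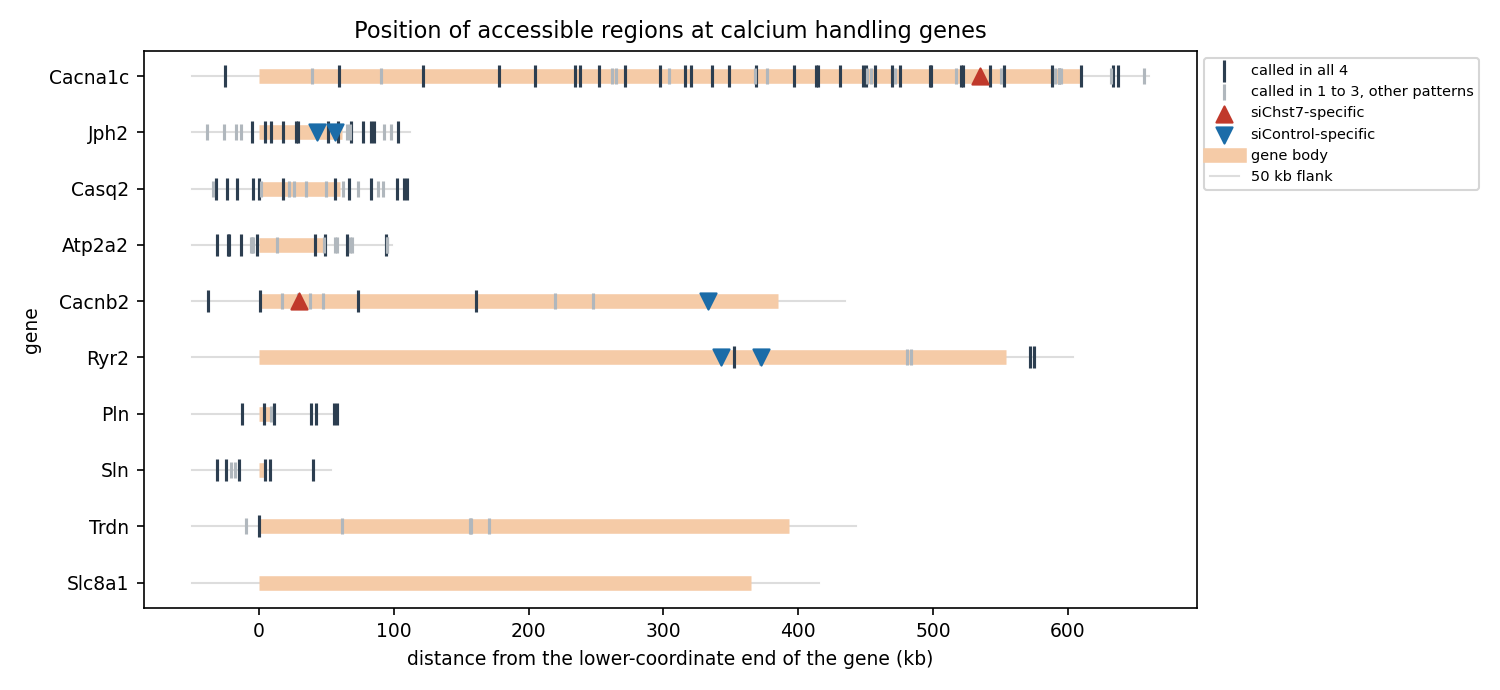
Each mark is a region, placed by its distance in kb from the lower-coordinate end of its gene (thick band, gene body; thin line, 50 kb flanks). Dark marks were called in all 4 libraries; triangles had a call in both libraries with one siRNA and in none with the other. Marks run along the whole of Cacna1c but fall on one side of Ryr2, and Slc8a1 has none.

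Start sites were taken from the RefSeq promoter table for 7 of the 10 genes. Cacna1c, Cacnb2 and Casq2 had a peak within 1 kb of a start in all 4 libraries, and Ryr2, Pln, Slc8a1 and Jph2 had none. Over 17491 protein-coding genes with a listed start, 54.3% had one. For Atp2a2, Trdn and Sln both gene ends were used, and each had a peak over 1 end in all 4 libraries. The 250 bases before the start are shown for 2 genes with such a peak and 3 without, with every CpG in capitals, since promoters that are open in many tissues are often rich in CpG. Sequences are from RefSeq (GRCm38.p6, the assembly of mm10), written 5′ to 3′ on the strand of the gene.
Cacna1c, with a peak, minus strand of chr6:119108496-119108745: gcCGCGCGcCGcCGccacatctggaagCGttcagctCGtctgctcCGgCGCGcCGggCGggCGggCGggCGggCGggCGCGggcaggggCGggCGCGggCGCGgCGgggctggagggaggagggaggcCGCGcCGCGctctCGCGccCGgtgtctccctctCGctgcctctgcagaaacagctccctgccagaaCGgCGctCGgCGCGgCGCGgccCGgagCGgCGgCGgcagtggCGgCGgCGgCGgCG
Casq2, with a peak, plus strand of chr3:102086165-102086414: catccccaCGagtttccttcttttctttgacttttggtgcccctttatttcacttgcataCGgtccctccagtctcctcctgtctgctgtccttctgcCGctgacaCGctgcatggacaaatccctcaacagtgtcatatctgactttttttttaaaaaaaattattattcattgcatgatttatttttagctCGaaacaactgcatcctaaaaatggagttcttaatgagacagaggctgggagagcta
Ryr2, no peak, minus strand of chr13:12106946-12107195: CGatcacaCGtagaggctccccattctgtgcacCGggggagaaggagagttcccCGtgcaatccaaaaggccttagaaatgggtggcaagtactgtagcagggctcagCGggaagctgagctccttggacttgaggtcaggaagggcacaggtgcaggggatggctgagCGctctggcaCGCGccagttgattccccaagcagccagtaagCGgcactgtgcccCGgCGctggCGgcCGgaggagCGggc
Pln, no peak, plus strand of chr10:53337436-53337685: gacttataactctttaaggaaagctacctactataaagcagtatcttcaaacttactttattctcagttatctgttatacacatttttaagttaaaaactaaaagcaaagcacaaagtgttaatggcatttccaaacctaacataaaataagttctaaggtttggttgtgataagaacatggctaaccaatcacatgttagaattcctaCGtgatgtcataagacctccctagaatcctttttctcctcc
Slc8a1, no peak, minus strand of chr17:81738388-81738637: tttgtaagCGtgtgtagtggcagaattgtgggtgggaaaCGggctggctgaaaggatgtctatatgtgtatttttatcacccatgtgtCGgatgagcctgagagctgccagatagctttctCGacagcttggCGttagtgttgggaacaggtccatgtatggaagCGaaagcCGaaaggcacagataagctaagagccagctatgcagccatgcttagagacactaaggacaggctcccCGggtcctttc

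The 5 windows held 48 CpG at Cacna1c, 5 at Casq2, 14 at Ryr2, 1 at Pln and 8 at Slc8a1. Over 21262 starts the median was 17 CpG where a peak lay within 1 kb in all 4 libraries and 3 where none did. Of the 4 starts with such a peak, the shown start of Cacna1c (48) and the first of Cacnb2 (30) were above that median of 17, and Casq2 (5) and the Cacna1c start at 119196409 (2) were far below it. Of the 7 starts without one, Pln (1) lay below its class median of 3, the second Cacnb2 start (3) lay at it, and Ryr2 (14), Slc8a1 (8), Jph2 (5 and 6) and the Cacna1c start at 118757974 (5) lay above it. A set of 7 motifs was searched on both strands of these 250 bases. The GATA motif AGATAA occurred once at Pln and once at Slc8a1, and in none of the other windows of these genes (8.81% of all starts hold it). The E-box CAGCTG occurred at both starts of Cacnb2 and both of Jph2, whose 2 windows overlap (12.1% of all starts). AP-1 (TGANTCA, 6.13% of all starts), T-box (AGGTGT, 11.03%), TEAD (GGAATG, 11.7%), MEF2 (0.466%) and the CArG box (1.39%) were found in none of the 11 windows. MEF2 was searched only in a strict form: CTA, 4 bases of A or T, then TAG. Looser forms of the MEF2 motif were not searched, so their absence from these windows is not shown.

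Among the genes of calcium entry, Cacna1c had regions spread along most of its length. It lies at chr6:118587240-119197384, and 49 of its 54 regions were inside the gene, 31 of these called in all 4 libraries. Of 3 listed starts, 2 had a peak. The start at 119108495, whose sequence is shown first, lay between 2 regions. The stronger, chr6:119108765-119109571, had a fold enrichment (the authors' ratio of the summit to the local background of the same library) of 9.61 and 10.1 with siControl and 10.3 and 9.37 with siChst7. The values of the 2 groups overlapped. The weaker, chr6:119107949-119108390, stood at 4.09 and 3.40 against 4.13 and 3.08. The start at 119196409 lay 0.065 kb from chr6:119196474-119197154, with 6.45 and 4.62 against 5.95 and 6.16; this region is also inside the neighbouring gene Dcp1b. The remaining start, at 118757974, was 7.27 kb from the nearest region. The highest-ranked region of the gene was away from any start, at chr6:119139389-119140042. Its fold enrichment was 17.8 and 17.2 with siControl and 16.8 and 13.9 with siChst7, and its −log10 q was 144 and 146 against 146 and 85.6. Across the 34 regions called in all 4 libraries, the mean fold enrichment ran from 3.67 to 16.4.

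Cacnb2 (chr2:14603861-14988811), which brings the channel to the membrane and shapes its gating, was sparse by comparison. Its region over the first start, chr2:14603900-14604642, had a fold enrichment of 7.09 and 11.6 with siControl and 10.3 and 7.56 with siChst7. One library of each siRNA was high and one low. The second start, at 14824092, had a region 0.654 kb away in 2 libraries only, 1 of each siRNA. Inside the gene, chr2:14676576-14677337 stood at 13.7 and 15.9 with siControl and at 7.93 and 8.86 with siChst7. Both siControl values were above both siChst7 values, as at 29.8% of all regions called in all 4 libraries. Another region of the body, chr2:14764080-14764944, chosen after its values were seen, did not separate them, with 8.64 and 10.5 against 11.1 and 9.15.

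Of the genes of calcium release, Ryr2 (chr13:11553099-12106945) was largely without peaks. Its start at 12106945, with the 14 CpG shown, was 17.9 kb from the nearest region. The body held 6 regions, of which 1, chr13:11905088-11905494, was called in all 4 libraries. It lay 201.5 kb inside the gene, with fold enrichments of 6.51 and 8.88 with siControl and 8.59 and 8.46 with siChst7. The lowest value was that of siControl replicate 1, and the groups overlapped. The 2 flank regions were upstream of the start and called in all 4. One of them, chr13:12127699-12128225, chosen after its values were seen, stood at 5.04 and 7.40 against 6.76 and 7.25.

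Casq2 (chr3:102086415-102146514) had a peak over its start, chr3:102085898-102086535, although its window holds 5 CpG. The fold enrichment there was 8.45 and 9.30 with siControl and 6.65 and 6.80 with siChst7, and the −log10 q was 41.3 and 42.05 against 22.8 and 19.5. Both siChst7 fold enrichments were the lower ones, as at 29.8% of all regions called in all 4 libraries. The highest-ranked region near Casq2, chr3:102169120-102170044, is inside the neighbouring gene Vangl1, at 18.2 and 20.3 against 19.8 and 16.4. Of its 22 regions 8 lay in the body, 3 of them called in all 4.

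Trdn (chr10:33083483-33476709) had a single region called in all 4 libraries, over its lower-coordinate end at chr10:33083057-33084283. It stood at 11.1 and 9.49 with siControl and 11.04 and 12.6 with siChst7, and these fold enrichments overlapped between the groups. Ranked by −log10 q among all regions called in all 4 libraries, it stood higher in both siChst7 libraries. The same held for 20.2% of all such regions. The other 5 regions were weak, with fold enrichments between 3.77 and 7.60. Jph2 (chr2:163336242-163398049) was the reverse, with no peak within 1 kb of its starts (the nearest region was 2.62 kb away) but 7 regions of its body called in all 4. The highest-ranked region in its flanks, chr2:163418927-163420062, lies over an end of Oser1, at 10.9 and 11.96 with siControl and 9.68 and 10.2 with siChst7. Of 2 regions within the gene chosen after their values were seen, chr2:163345004-163345602 had 11.8 and 12.1 against 9.43 and 12.8, and chr2:163353642-163354460 had 11.2 and 10.9 against 11.3 and 10.8.

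Of the genes of calcium reuptake, Atp2a2 (chr5:122453513-122502225), whose pump is also made outside the heart, had a peak over its upper-coordinate end in all 4 libraries. At chr5:122502090-122503034 the fold enrichment was 7.95 and 8.36 with siControl and 8.355 and 8.45 with siChst7, and the groups overlapped. Most regions counted for Atp2a2 were in its flanks (16 of 20), and the highest-ranked, chr5:122421532-122422886, lies over an end of Anapc7, with 9.93 and 12.1 against 11.6 and 10.8. Pln (chr10:53337686-53345999) lies inside Cep85l, so most regions counted for it are also regions of that gene. Its start was 3.59 kb from the nearest region, chr10:53341274-53341750, which is in its body, was chosen after its values were seen and stood at 10.6 and 9.59 against 8.92 and 11.7. The highest-ranked one, chr10:53379134-53380241, covers an end of Cep85l, with 10.02 and 12.6 with siControl and 9.78 and 10.5 with siChst7. Sln (chr9:53850251-53853849) had 1 region in its body, over its upper-coordinate end at chr9:53853642-53854902. It stood at 8.35 and 8.84 with siControl and 7.79 and 7.25 with siChst7. Both siChst7 values were lower, as at 29.8% of all regions called in all 4 libraries. Its −log10 q was 64.43 and 64.40 against 64.2 and 41.2, and its ranks by −log10 q among the shared regions overlapped between the groups.

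**Figure D3:**
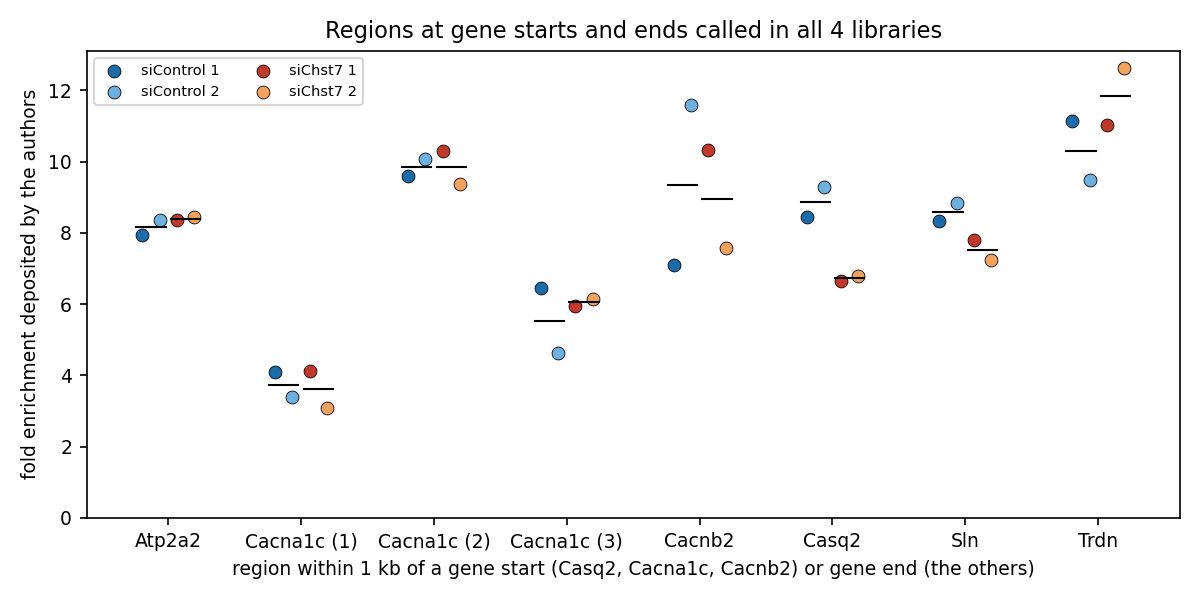
Fold enrichment deposited by the authors (axis from 0) at each region called in all 4 libraries within 1 kb of a start (Casq2, Cacna1c, Cacnb2) or gene end (Atp2a2, Sln, Trdn). Points are single libraries and bars the mean of 2; Cacna1c regions are numbered by coordinate. At Casq2 (8.45 and 9.30 against 6.65 and 6.80) and Sln the groups do not overlap, and at the other regions shown they do. Both siChst7 values were the lower ones at 29.8% of all regions called in all 4 libraries.

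Slc8a1 (chr17:81373105-81738387), the exchanger that carries calcium out, had no peak in any library over its 365 kb body and 50 kb flanks. The nearest region below the gene was 183 kb away and called in 1 library, and the nearest above it was 639 kb away and called in 2. Between regions called in all 4 libraries the gap was 1839 kb. Such emptiness was not rare: 62 of 556 genes of at least 300 kb (11.2%) and 2897 of 21883 protein-coding genes (13.2%) held no region in the same window.

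The comparison between siRNAs asks whether regions at these genes open or close when Chst7 is targeted. Peaks at the genes made up 0.169% ± 0.00285 of the list with siControl and 0.172% ± 0.000889 with siChst7 (SD, n = 2 each). In number they were 126 and 126 with siControl and 128 and 113 with siChst7, the lowest in the shallowest library. By calls, 7 regions were group-specific, present with one siRNA and absent with the other (4.35%, against 4.08% of all regions). Of these, 2 were siChst7-specific, meaning that both siChst7 libraries and neither siControl library had a peak (1.24%, against 1.24% of all regions). The other 5 were siControl-specific, the reverse (3.11%, against 2.84% of all regions). These shares were near the background, and the counts show nothing particular to these genes. With 2 libraries against 2, no exact permutation test can go below a two-sided p of 0.333, and none was run. All 7 lay in gene bodies, where the siChst7-specific ones made up 2.13% and the siControl-specific ones 5.32% of the 94 regions. The share over gene-body regions of the whole genome was not computed, so these body shares have no like background and show no enrichment. With each library left out in turn, which loosens the rule, the siChst7-specific count ran from 6 to 10 (4.05% to 6.41%, against 3.05% to 6.53% of all regions). The siControl-specific count ran from 6 (3.85%, against 4.56%) without siChst7 replicate 2 to 19 (12.2%, against 9.03%) without siControl replicate 1. Of the 20 regions called in 3 libraries, 10 lacked the call in siChst7 replicate 2 and 1, 4 and 5 in siChst7 replicate 1 and siControl replicates 1 and 2; over the genome these were 4792 against 1461, 1624 and 1511.

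None of the 7 group-specific regions lay at a start. At Jph2, chr2:163392549-163392821, 5.15 kb inside the gene, was called with siControl at a fold enrichment of 8.75 and 9.59 and a −log10 q of 35.3 and 39.5. The nearest siChst7 peaks were 1.54 and 1.51 kb away. It was the strongest of the 7 and kept its call under all 9 other settings of threshold, width, merging and flanks. The flank settings could not change the call of any of the 7, since all lay in gene bodies. A second Jph2 region, chr2:163379325-163379814, stood at 5.18 and 5.11 with siControl. Ryr2 had 2 regions of this kind. The one at chr13:11895628-11895920 stood at 5.49 and 5.68, which corresponds to 15 and 15 reads at the summit, and the one at chr13:11925705-11925976 at 4.87 and 6.04. The latter had siChst7 peaks close by, 0.716 and 0.758 kb away. At Cacnb2, chr2:14936347-14936813 stood at 5.49 and 5.68 with siControl, with no siChst7 peak within 84.7 kb. Apart from the first Jph2 region, each of these siControl-specific regions lost its call at a −log10 q of at least 10, and the Ryr2 region chr13:11925705-11925976 also with lists of equal length.

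Both siChst7-specific regions were in genes of the calcium channel, Cacna1c and Cacnb2. These 2 genes held 54 and 12 of the 161 regions, and 49 and 11 of the 94 in gene bodies. At Cacnb2, chr2:14633239-14633497, 28.9 kb inside the gene, stood at 6.94 and 6.85 with siChst7, corresponding to 20 and 16 reads at the summit, with a −log10 q of 11.9 and 10.03. A siControl replicate 2 peak lay 0.448 kb away. The region kept its call under all 9 settings, of which those of the flanks could not change it. At Cacna1c, chr6:119121768-119122147 stood at 7.60 and 6.45, or 22 and 15 reads, and the nearest siControl peaks were 7.44 and 7.43 kb away. It lost the call at a −log10 q of at least 10 and with peaks of at least 200 bp, its peak in siChst7 replicate 2 being 193 bp wide. Cacnb2 therefore had 1 region on each side, Jph2 and Ryr2 had siControl-specific regions, and Pln, Atp2a2, Casq2, Trdn, Sln and Slc8a1 had no group-specific region.

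Among the 89 regions called in all 4 libraries, the fold enrichment of both siChst7 libraries lay above both siControl libraries at 10 (11.2%, against 11.2% of all such regions) and below at 26 (29.2%, against 29.8%). These shares are those of the genome. The median ratio of siChst7 to siControl mean fold enrichment was 0.962 at these genes and 0.960 over all 55924 regions called in all 4, so the lower values with siChst7 were not particular to them. Ranked by −log10 q within the 55924 shared regions, which frees the comparison from list length, 17 ranked higher in both siChst7 libraries (19.1%, against 20.2%) and 19 lower (21.3%, against 20.2%). Of the 26 with lower fold enrichment, 14 were at Cacna1c (of its 34) and 12 at the other genes (21.8% of 55).

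**Figure D4:**
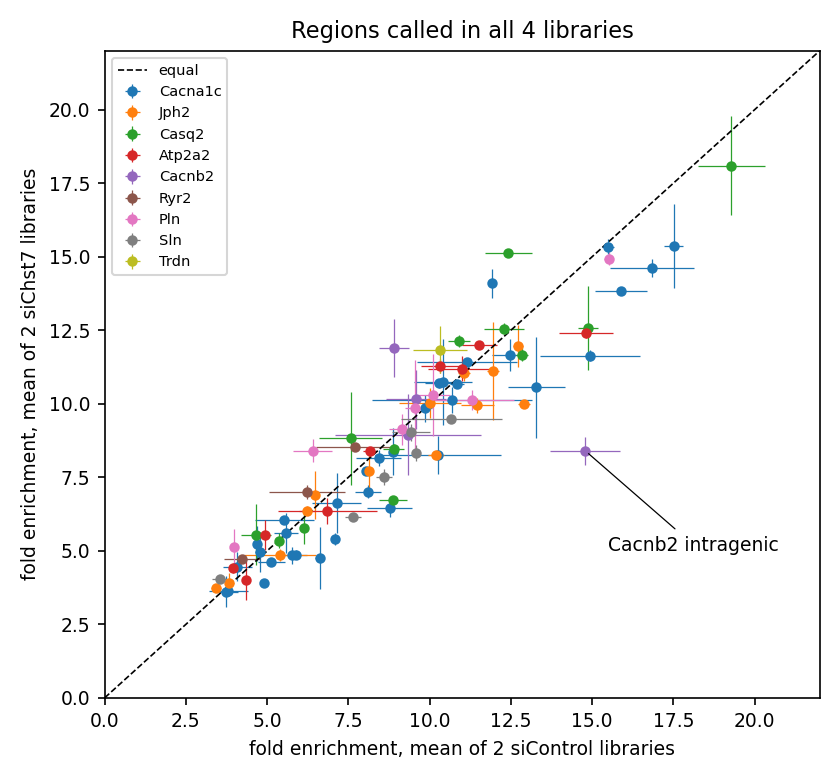
Mean fold enrichment with siChst7 (vertical) against siControl (horizontal) at the 89 regions called in all 4 libraries, coloured by gene; error bars run from 1 library to the other. The points lie along the dashed line of equal values, and the region inside Cacnb2 (14.8 against 8.40) is the farthest below it.

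Further regions with a large or small ratio are given here; apart from those of Cacnb2 and Casq2 already named, they were chosen after their values were seen. The Cacnb2 region chr2:14676576-14677337 had the lowest ratio of the 89, with a mean of 14.8 ± 1.52 with siControl and 8.40 ± 0.661 with siChst7 (SD, n = 2 each), a ratio of 0.568. Over the genome 0.0554% of the shared regions had a ratio this low or lower. That share makes no allowance for this region being the lowest of the 89, and nothing was tested. At Cacna1c, chr6:119175026-119175731 (ratio 0.718), which covers an end of Dcp1b, stood at 6.47 and 6.76 with siControl and 3.71 and 5.80 with siChst7, and chr6:118955862-118956617 (ratio 0.735) at 9.45 and 8.08 against 6.75 and 6.14. The Casq2 start region had a ratio of 0.757, and at Jph2 chr2:163386686-163387403 (ratio 0.774) stood at 13.1 and 12.7 against 9.86 and 10.1. In the other direction, chr2:14565653-14566242, 37.6 kb outside Cacnb2, stood at 8.45 and 9.37 with siControl and 10.9 and 12.9 with siChst7 (ratio 1.33). The region chr10:53392615-53393241, 46.6 kb from Pln, stood at 5.79 and 7.005 against 8.01 and 8.79 (ratio 1.31), and inside Cacna1c, chr6:118858063-118859326, at 11.996 and 11.8 against 14.6 and 13.6 (ratio 1.18). Body regions with non-overlapping fold enrichment on both sides thus occurred at Cacna1c. They also occurred at Casq2, where chr3:102103636-102104586 had a ratio of 1.11 and the start region 0.757. The relative read density was lowest in siChst7 replicate 2 (0.757), and its part in these differences was not tested.

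Other calcium genes, a list of 64 that includes skeletal muscle and neuronal relatives (Ryr1, Ryr3, Atp2a1, Casq1), further channel subunits, IP3 receptors, calmodulin and store-operated entry, gave the wider setting. An end of the gene was called in all 4 libraries for 41 of the 64 (64.1%), against 6 of the 10 genes above. Their windows held 921 further regions, 65.1% called in all 4, and the median density was 8.15 regions per 100 kb. Of these regions, 9 were siChst7-specific (0.977%) and 25 siControl-specific (2.71%), again near the genome's 1.24% and 2.84%. Each is named by the gene whose body or 50 kb flanks hold it. Several lay outside the gene itself, as at Stim1, Fkbp1a, Atp2b4 and Cacna2d3. The siChst7-specific ones were at Atp2b4, a plasma membrane calcium pump, Bin1, which shapes T-tubules, Cacna2d1 and Cacna2d3, both auxiliary channel subunits, Camk2d, Srl, Tmem38a and, with 2 regions, Cacnb4. The siControl-specific ones lay in the windows of genes that included the stores' calcium sensors Stim1 and Stim2 and the IP3 receptors Itpr2 and Itpr3. Also among these genes were the ryanodine receptor partners Fkbp1a and Fkbp1b, and the exchanger Slc8a2. Others included Asph, Atp2a3, Atp2b1, Atp2b2, Cacna1s, Cacnb1, Cacnb3, Cacnb4, Cacng6, Camk2b, Ppp1r1a, Prkaca and Prkar2a. None of the 64 was without a region, unlike Slc8a1, and the sparsest were Cacna2d3 (0.218 per 100 kb) and Trpc6 (0.422).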

How the data were processed

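Chromatin accessibility was measured by ATAC-seq in 4 libraries, 2 per siRNA. Per the submitters' processing notes, the build was mm10 and the tools were MACS3, Bowtie, SAMtools, HOMER and bedtools, with versions, roles and read filters not given in the sources used here. Each library has its own peak list, whose peak names carry the name of 1 alignment file. The fold enrichment (a ratio to local background), the −log10 p and −log10 q, and the score (10 times the −log10 q) were deposited by the authors, 1 value per peak, and serve to describe and rank peaks within a list. The lowest −log10 q in each list is just above that of a q-value of 0.01.

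Peaks were merged at 1 bp overlap (Python 3.11.15, pandas 2.3.3). Read totals are unknown. At peaks with a −log10 q under 8 the fold enrichments lie on whole multiples of a constant step (33.1% to 45.8% of them, within 0.001 reads), which gave the background pileup (1.92 and 1.82 with siControl, 2.03 and 1.48 with siChst7), the relative density (pileup over the narrowest peak, 180 to 189 bp) and, where whole, reads at a summit. The fewest reads listed were 5 to 6. The merging was tested on simulated data. The gene table and the promoter table are RefSeq GRCm38.p6; exons and introns were not told apart.

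No test was run. Members and lists were chosen with earlier results of these data known. Named regions were those over a start, the highest-ranked one called in all 4 libraries, and each group-specific one; others are marked as chosen after their values were seen.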

Additional observations from a re-analysis of the deposited data

How the results depend on the processing

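The 161 regions became 105 at a −log10 q of at least 10 and 94 without flanks; those called in all 4 libraries (89) became 50 without flanks and 57 with 10 kb flanks; the median per gene (10) became 5.5 without flanks and 17.5 with 100 kb flanks. These follow from fewer peaks or other windows. The siChst7-specific count (2) became 1 at a −log10 q of at least 10 (0.952%, against 1.00% of all regions), 4 with lists of equal length (2.82%, against 1.96%) and 4 with 200 bp summit windows (2.27%, against 1.54%). The siControl-specific count (5) became 2 at a −log10 q of at least 10 (1.90%, against 2.69%). With lists of equal length the shares of all regions were nearly even, 1.96% siChst7-specific and 2.05% siControl-specific. Without each library in turn, the siChst7-specific count ran from 6 to 10 (genome 3.05% to 6.53%) and the siControl-specific count from 6 to 19 (genome 4.56% to 9.03%), since 1 call then stands for a group; the regions ran from 148 to 156, and those called in every remaining library from 90 to 99. The 3 genes with a start peak stayed 3 under each of the settings of threshold, list length, peak width, start window and left-out library. Of 130 counts per gene, 113 stayed within 1.5 times the main value, and 14 of the other 17 were lower. No paired analysis was possible because the results are calls and single deposited values from no test, with no fit that could take a block. Depth limits weak regions most: absence of a call in siChst7 replicate 2, at a relative density of 0.757, does not show closed chromatin.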
